A study of Mus musculus with 36 samples.

Results

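AMPA and kainate receptors are the 2 families of fast glutamate-gated ion channels encoded by the *Gria* and *Grik* genes. The genes followed here were the 4 AMPA receptor subunits *Gria1* to *Gria4* and the 5 kainate receptor subunits *Grik1* to *Grik5*, taken by gene name from both deposited count tables, which makes 9 of the 24421 genes listed. All 9 passed the filter on low values, more than 1 CPM (counts scaled to a common library size) in at least 6 libraries, in every comparison. The question was how their mRNA levels differed between cerebellum and hippocampus and whether they followed the number of intact copies of *Pogz*, a gene for a chromatin-associated zinc finger protein.

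The data were RNA-seq libraries made from poly(A)-selected RNA of dissected cerebella and hippocampi of 18 adult C57Bl/6 mice, with 1 library per tissue and animal. Control mice (Pogzfl/fl, n = 6) carried 2 floxed *Pogz* alleles and no Cre. *Pogz* cKO+/- mice (NesCre/+; Pogzfl/+, n = 6) had lost 1 allele in Nestin-Cre expressing cells, which are mainly neural progenitors and their neuronal and glial descendants, and *Pogz* cKO-/- mice (NesCre/+; Pogzfl/fl, n = 6) had lost both. Each genotype held 3 males and 3 females. Since both mutant groups carried the Cre transgene and the controls did not, an effect of Cre and an effect of losing *Pogz* cannot be told apart in a comparison with controls. The deletion removes a block of exons and *Pogz* was counted over the whole gene, so reads from the remaining exons were still counted. *Pogz* stood at 89.6 to 130 CPM in control cerebella, 66.4 to 81.5 in cKO+/- and 57.0 to 74.0 in cKO-/- cerebella, and at 89.0 to 92.8, 74.0 to 80.2 and 53.6 to 67.7 CPM in the corresponding hippocampi, so that the genotypes followed the labels in order, with an overlap only between the mutant cerebella.

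Each library held 21421850 to 32544929 counted reads in cerebellum and 17609321 to 45544188 in hippocampus. The 9 genes had between 297 reads (*Grik1* in a hippocampus) and 58898 reads (*Gria1* in a hippocampus). One library stood apart. The hippocampus of cKO-/- animal Sample_1160 had a median correlation of 0.872 with the other hippocampi, against at least 0.975 for every other hippocampus. Its CPM lay outside the range of the other 17 hippocampi for 8 of the 9 genes, all but *Grik1*. Its *Grik5* stood at 720 CPM against 245 to 357 elsewhere, and its *Gria2* at 533 against 897 to 1229. Hippocampal results are therefore given over 17 libraries, and over all 18 where this changed a result. The hippocampus of control Sample_1129 held 49.3 CPM of *Gabra6* and 19.1 CPM of *Pcp2*, transcripts of cerebellar granule and Purkinje cells, where the next highest hippocampus had 1.09 and 0.893. Animal numbers were also uneven: all controls fell in the range from Sample_1120 to Sample_1219, whereas 3 cKO+/- and 4 cKO-/- animals had numbers outside it. What these numbers mark is not given in the sources used here, so a difference between these sets of animals and an effect of genotype can be separated only in part, within the range.

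AMPA receptors are tetramers that carry most fast excitatory transmission in the brain, and GluA2, the product of *Gria2*, makes them nearly impermeable to calcium because its transcript is edited at the Q/R site, a codon in the pore loop that the genome encodes as glutamine and that is read as arginine after adenosine-to-inosine conversion. Kainate receptors are tetramers of GluK1 to GluK3, which can form channels by themselves, with the high-affinity partners GluK4 and GluK5, which cannot, and they act on both sides of the synapse. In the cerebellum, granule and Purkinje cells and Bergmann glia hold different subunit sets, and in the hippocampus the mossy fiber synapses of CA3 are the best known site of kainate receptors.

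The pore-loop stretch below shows how alike the subunits are at this position. It is given 5′ to 3′ from reference transcripts (GENCODE M1, build NCBIM37) as 33 bases, with the codon of the Q/R site in capitals. The counts are per gene and say nothing of editing.
Gria1: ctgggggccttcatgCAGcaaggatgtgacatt
Gria2: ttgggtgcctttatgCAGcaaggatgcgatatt
Gria3: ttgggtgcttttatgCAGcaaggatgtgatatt
Gria4: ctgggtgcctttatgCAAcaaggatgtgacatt
Grik1: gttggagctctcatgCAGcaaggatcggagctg
Grik2: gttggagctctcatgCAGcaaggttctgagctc
Grik3: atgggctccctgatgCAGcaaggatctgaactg
Grik4: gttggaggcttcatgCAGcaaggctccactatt
Grik5: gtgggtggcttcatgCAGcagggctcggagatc

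All 9 codons encode glutamine, 8 as CAG and that of *Gria4* as CAA. Against *Gria2*, the stretch differed at 2 bases in *Gria3*, 4 in *Gria4* and 5 in *Gria1*, and at 9 to 12 in the *Grik* genes. Even so, few reads could have been shared with protein-coding transcripts of other genes. All windows of the read length, 43 bases, in the reference transcripts of each gene were searched for in these. None of *Gria1*, *Grik1*, *Grik2* or *Grik5* occurred in another gene. The highest share was 0.684% in *Grik3*, mostly with *Kcnj16* and *Gm53*. It was 0.386% in *Gria2*, 0.504% in *Gria3* and 0.479% in *Gria4*, mostly with other *Gria* genes. Sequences outside protein-coding transcripts were not searched.

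The 9 genes lay at separate loci, given here in the coordinates of the count tables, which match build GRCm38. The AMPA genes were *Gria1* at chr11:57011618-57330244 on the plus strand, *Gria2* at chr3:80684936-80802791 on the minus strand, *Gria3* at chrX:41401301-41678601 on the plus strand, and *Gria4* at chr9:4417893-4796234 on the minus strand. The kainate genes were *Grik1* at chr16:87895897-88290258, *Grik2* at chr10:49099463-49788754, *Grik4* at chr9:42520412-42944371 and *Grik5* at chr7:25009851-25072369, all on the minus strand, and *Grik3* at chr4:125490831-125714173 on the plus strand. Exons of other listed genes overlapped none of their exons.

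The subunit sets of the 2 tissues were first compared in the control animals. *Gria1*, *Gria2*, *Gria3*, *Grik4* and *Grik5* were higher in hippocampus, and *Gria4*, *Grik1*, *Grik2* and *Grik3* were higher in cerebellum. All 9 genes passed the test, which has to be read against 71.9% of the 14224 genes tested, 35.2% higher and 36.7% lower in hippocampus. The median difference was 0.74 on the log2 scale over the 9 genes and -0.023 over all genes tested. In bulk tissue, fewer cells of a type and less RNA per cell cannot be told apart, which applies to every difference in level below.

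The sharpest contrast was in *Gria4*, whose subunit gives AMPA receptors fast gating. On a scale per length, RPKM (the CPM divided by the exon length in kilobases), its 6 control cerebella stood between 94.5 and 126 and its 6 control hippocampi between 9.49 and 13.7. The tissues were far from overlapping, and the level was 9.55-fold lower in hippocampus (log2 difference -3.26, SE 0.090, edgeR quasi-likelihood test with Benjamini-Hochberg adjusted p = 1.81e-12). Without animal Sample_1129 the difference was -3.32.

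*Gria1*, the main subunit of hippocampal pyramidal cells along with *Gria2*, had RPKM of 96.3 to 132 in cerebellum and 206 to 262 in hippocampus. *Gria2* had 46.0 to 76.8 and 120 to 165, and *Gria3*, the subunit that pairs mainly with GluA2, had 23.5 to 36.4 and 48.0 to 58.8. For each of these 3 genes every control hippocampus lay above every control cerebellum. The share of all tested genes with such a separation of the tissues was not counted, which applies to the other subunits too. The folds were 1.98 for *Gria1*, 2.48 for *Gria2* and 1.67 for *Gria3*, with edgeR quasi-likelihood Benjamini-Hochberg adjusted p of 1.204e-07, 8.192e-07 and 7.533e-06.

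Among the kainate subunits, the high-affinity pair was the hippocampal one. *Grik5* had RPKM of 22.5 to 26.0 in cerebellum and 84.2 to 95.7 in hippocampus, 3.67-fold higher. *Grik4* had 4.59 to 6.74 and 15.5 to 26.5, 3.56-fold higher. The tissues were separate for both genes (edgeR quasi-likelihood Benjamini-Hochberg adjusted p = 7.074e-12 for *Grik5* and 2.468e-08 for *Grik4*).

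The channel-forming kainate subunits went the other way. *Grik1* had RPKM of 7.16 to 11.8 in cerebellum and 3.01 to 4.65 in hippocampus, 2.54-fold lower (edgeR quasi-likelihood Benjamini-Hochberg adjusted p = 7.7e-08). *Grik2*, the most abundant of the 3 in both tissues, had 20.2 to 25.8 and 14.8 to 19.6, 1.38-fold lower (adjusted p = 0.0001041 in the same edgeR test). *Grik3* had 6.67 to 14.4 and 6.28 to 8.71, 1.53-fold lower (adjusted p = 0.00195 in the same edgeR test). The tissues were separate for *Grik1* and *Grik2* and overlapped for *Grik3*.

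Since both tissues came from the same animals, the difference could also be read within each animal. Among the 6 controls, *Gria1*, *Gria2*, *Gria3*, *Grik4* and *Grik5* were higher in hippocampus in 6 of 6, *Gria4*, *Grik1* and *Grik2* in 0 of 6, and *Grik3* in 1 of 6. Over the 17 animals with both libraries retained, *Gria3* was higher in hippocampus in 16, *Grik2* in 3 and *Grik3* in 1, while the other genes kept 1 direction in 17 of 17. The within-animal log2 difference of *Grik2* ran from -0.66 to 0.50 over these animals, and the 3 with higher *Grik2* in hippocampus were the cKO-/- animals Sample_1371, Sample_1379 and Sample_1385, all outside the number range.

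**Figure D1:**
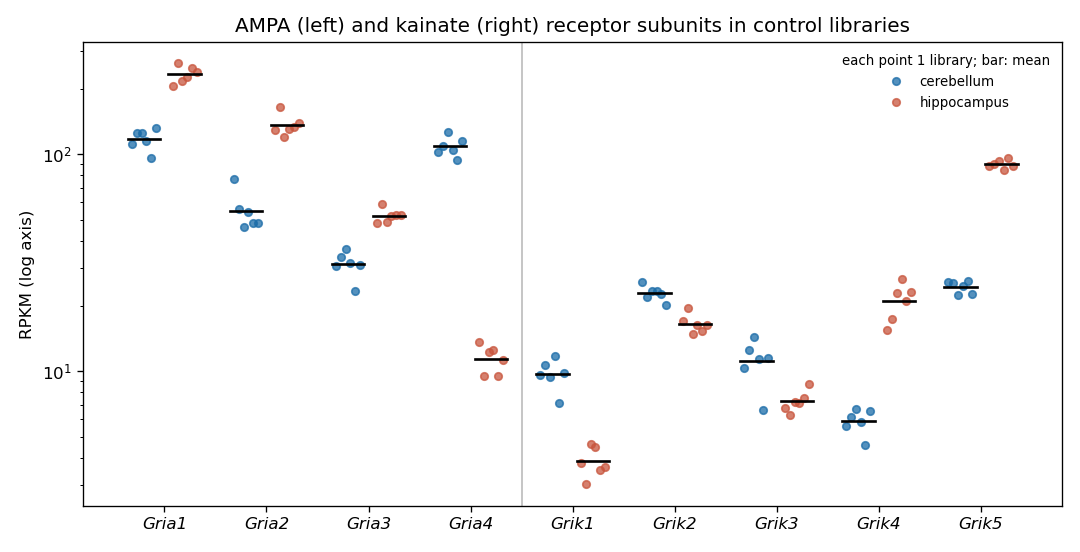
RPKM (log axis) of the 9 subunit genes in control mice, with 1 point per library for 6 cerebella and 6 hippocampi and a line at each mean. *Gria4* stands between 94.5 and 126 in cerebellum and between 9.49 and 13.7 in hippocampus, whereas *Grik5* stands between 22.5 and 26.0 and between 84.2 and 95.7.

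The order of levels per length differed between tissues. In control cerebella it was *Gria1* (mean RPKM 118), *Gria4* (109), *Gria2* (54.9), *Gria3* (31.1), *Grik5* (24.5), *Grik2* (22.9), *Grik3* (11.2), *Grik1* (9.75) and *Grik4* (5.92). The ranges of *Gria1* and *Gria4*, of *Gria3* and *Grik5*, of *Grik5* and *Grik2*, and of *Grik3* and *Grik1* overlapped, so these neighbors were not ordered beyond their spread. In control hippocampi the order was *Gria1* (234), *Gria2* (136), *Grik5* (90.0), *Gria3* (52.0), *Grik4* (21.1), *Grik2* (16.6), *Gria4* (11.4), *Grik3* (7.27) and *Grik1* (3.85), and only *Grik4* and *Grik2* overlapped. *Gria4* thus moved from rank 2 to rank 7, while *Gria1* was first in both tissues.

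Expressed as a share of the summed RPKM of its family, *Gria1* made up 37.7 ± 1.91% (SD, n = 6) of AMPA subunit mRNA in control cerebella and *Gria4* made up 34.8 ± 2.07%, followed by *Gria2* with 17.6 ± 3.55% and *Gria3* with 9.93 ± 0.726%. In control hippocampi *Gria1* held 53.9 ± 1.48%, *Gria2* 31.4 ± 1.33%, *Gria3* 12.01 ± 0.188% and *Gria4* 2.68 ± 0.581%. The pair of *Gria1* and *Gria4* in cerebellum was thus replaced by *Gria1* and *Gria2* in hippocampus.

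In the kainate family *Grik5* (33.1%) and *Grik2* (30.9%) held similar shares in control cerebella, with 14.9% for *Grik3*, 13.1% for *Grik1* and 7.96% for *Grik4*. In control hippocampi *Grik5* alone held 64.9 ± 2.53%, *Grik4* 15.1%, *Grik2* 11.97%, *Grik3* 5.24% and *Grik1* 2.77%. The AMPA family made up 80.7 ± 0.955% of the subunit mRNA of both families in cerebellum and 75.7 ± 1.53% in hippocampus. Taken from counts without dividing by gene length, the kainate shares changed order in control cerebella, to 31.1% for *Grik2*, 27.1% for *Grik3* and 26.3% for *Grik5*, and *Grik3* held 11.1% in control hippocampi, with *Grik5* still first at 59.8%. These shares are descriptions and were not tested.

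**Figure D2:**
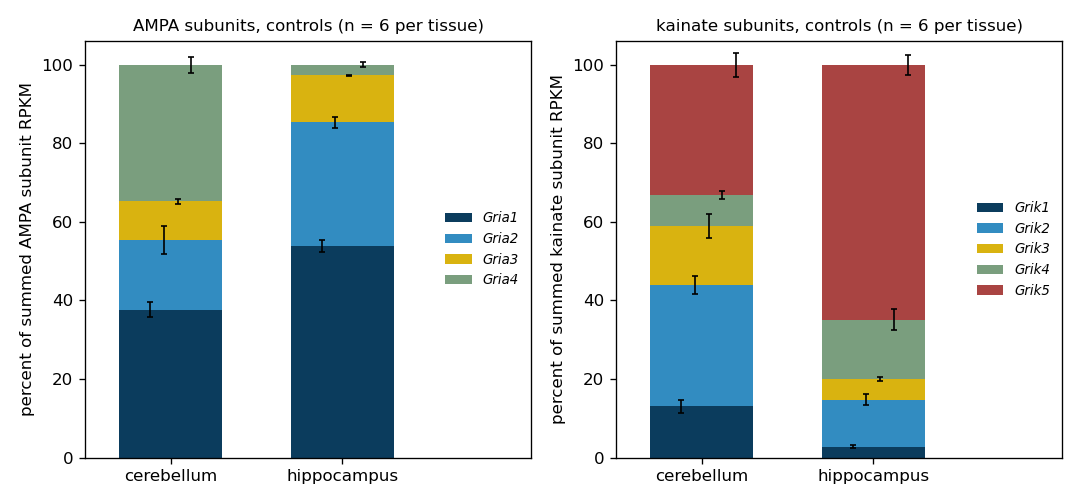
Stacked shares (percent of the summed RPKM of the family, from 0) of the 4 AMPA and the 5 kainate subunits in control mice, as means over 6 libraries per tissue with bars for the SD. *Gria4* holds 34.8% of AMPA subunit mRNA in control cerebella and 2.68% in control hippocampi, and *Grik5* holds 33.1% and 64.9% of kainate subunit mRNA.

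The effect of *Pogz* was tested as a log2 change per lost allele (0, 1 or 2), with sex as a covariate. In cerebellum 1 of the 9 genes was called, *Gria3*, beside 13.7% of the 14027 genes tested (7.11% higher, 6.55% lower). The median change per allele was 0.051 over the 9 genes and 0.00087 over all genes. At an unadjusted p under 0.05 there were 2 genes, *Gria3* and *Grik3*.

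*Gria3* stood at 129, 173 and 197 CPM (lowest, median and highest) in control cerebella, at 168, 182 and 211 in cKO+/- and at 176, 211 and 300 in cKO-/-. The groups shifted upward in order but overlapped. It rose by 0.19 per allele on the log2 scale (SE 0.057, 95% confidence interval 0.075 to 0.31, edgeR quasi-likelihood test with Benjamini-Hochberg adjusted p = 0.0312). An exact two-sided permutation test of cKO-/- against controls gave p = 0.0238, where 0.00216 was the smallest p possible.

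The call on *Gria3* was not stable. It was lost without animal Sample_1129 (adjusted p = 0.0577 in the edgeR test), Sample_1172 (0.0514), Sample_1190 (0.0771), Sample_1371 (0.0673) or Sample_1385 (0.0806), with changes of 0.13 to 0.22 per allele over the 18 omissions. Within the range from Sample_1120 to Sample_1219 the change was 0.081 (edgeR adjusted p = 0.442), where the 2 cKO-/- cerebella of that range stood at 190 and 192 CPM and the 4 outside it at 176 to 300.

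Marker sums of granule cells, Purkinje cells and inhibitory neurons were read over the same sets of animals. The summed level of 6 cerebellar granule cell markers was 4115 to 4753 CPM in controls, 4799 to 5040 in the cKO-/- cerebella inside the number range and 2585 to 3738 in those outside it. The sum of 6 Purkinje cell markers was 7129 to 10705 CPM in controls, 10954 to 11816 inside and 7799 to 16436 outside, and that of 5 inhibitory neuron markers was 1630 to 1989, 1758 to 1822 and 1692 to 2624. The cKO-/- animals Sample_1371, Sample_1379 and Sample_1385 had the highest *Gria3* (299.8, 229.5 and 251 CPM) and the highest inhibitory marker sums (2541 to 2624 CPM). No marker of these lists was at 0, and the part of cell composition in the change of *Gria3* was not tested.

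Across the 18 cerebella, the genes whose log2 CPM followed that of *Gria3* most closely were *Nln* (Pearson's r = 0.948), *Cacnb2* (0.948) and *Gad2* (0.948), out of 14026 genes. *Gad2* is itself in the inhibitory neuron list above. These libraries share the differences in genotype, number range and marker levels described above, and the correlations are descriptions without a test.

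The other AMPA subunits showed no change that passed the test in cerebellum. *Gria1* stood at 596 to 813 CPM in controls and 576 to 1117 in cKO-/-, *Gria2* at 363 to 633 and 343 to 640, and *Gria4* at 602 to 791 and 562 to 902. Their changes per allele were 0.073 (95% confidence interval -0.057 to 0.20), 0.051 (-0.10 to 0.20) and 0.0091 (-0.092 to 0.11).

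Of the kainate subunits, *Grik3* had 61.0, 104 and 130 CPM in control cerebella, 97.6, 105 and 117 in cKO+/-, and 113, 122 and 170 in cKO-/-. The cKO-/- values began inside the upper part of the control range. The change was 0.19 per allele (SE 0.066) and missed the threshold (edgeR quasi-likelihood Benjamini-Hochberg adjusted p = 0.0624), with an exact two-sided permutation p of 0.0281 between cKO-/- and controls.

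*Grik2* had 101, 116 and 134 CPM in control cerebella, 95.4, 112 and 126 in cKO+/-, and 63.7, 90.4 and 126 in cKO-/-. Its spread was wider in cKO-/-, where the 2 animals inside the number range had 125 and 126 CPM and the 4 outside it 63.7 to 101. The change of -0.13 per allele (SE 0.068) did not pass the test (edgeR quasi-likelihood Benjamini-Hochberg adjusted p = 0.193). *Grik1*, *Grik4* and *Grik5* had changes of 0.092, 0.043 and -0.045 per allele, and their groups overlapped widely.

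For 0 of the 9 genes did the 6 cKO-/- cerebella lie entirely on one side of the 6 controls, as 4.58% of the 14027 genes did. The same held in hippocampus, where it was 3.65% of 14339 genes.

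**Figure D3:**
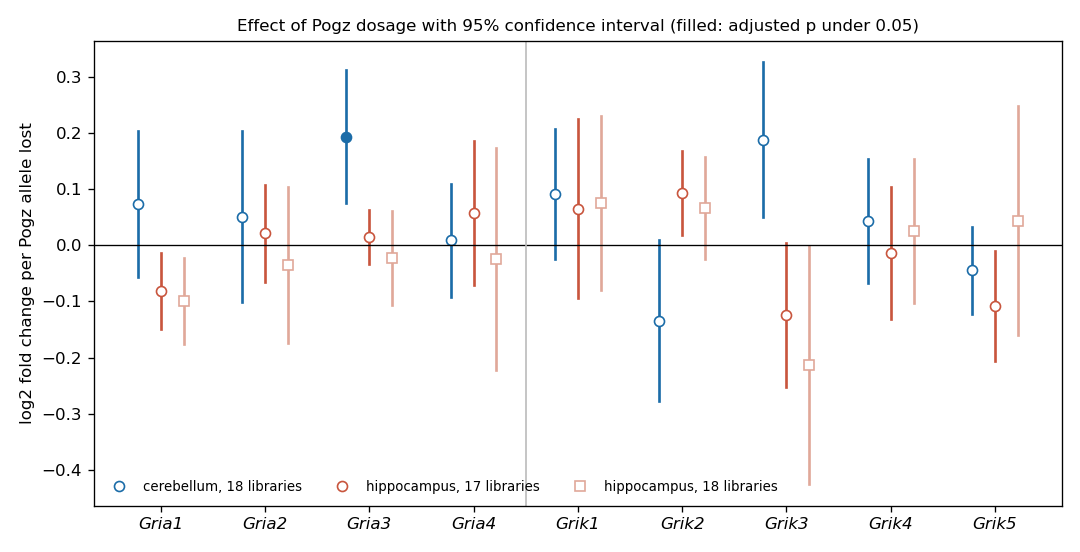
Change per lost *Pogz* allele (log2) of the 9 subunit genes in cerebellum (18 libraries) and hippocampus (17 libraries, and 18 with Sample_1160), filled where called, with bars for the 95% confidence interval and a line at 0. *Gria3* in cerebellum, at 0.19 with an interval of 0.075 to 0.31, is the 1 filled point.

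In hippocampus 0 of the 9 genes were called, beside 4.44% of 14339 genes (2.09% higher, 2.35% lower) by the edgeR quasi-likelihood test over 17 libraries. At an unadjusted p under 0.05 there were 3 genes, *Gria1*, *Grik2* and *Grik5*. DESeq2 called 0 as well. Over all 18 libraries 0 were called by edgeR, beside 1.72% of genes, and 2 had an unadjusted p under 0.05. The median change per allele was 0.015 over the 9 genes and 0.0017 over all genes.

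*Gria1* had 1203, 1345 and 1507 CPM in control hippocampi, 1015, 1236 and 1418 in cKO+/-, and 1173, 1225 and 1259 in the 5 retained cKO-/- libraries. Its change was -0.081 per allele (SE 0.033, edgeR quasi-likelihood Benjamini-Hochberg adjusted p = 0.169). *Grik5* had 313, 333 and 356 CPM in controls, 267, 342 and 353 in cKO+/-, and 245, 269 and 357 in cKO-/-, a change of -0.11 (SE 0.047, edgeR adjusted p = 0.205). The median of cKO-/- lay below all controls for *Grik5* and near the lowest control for *Gria1*, and the ranges overlapped in both. Over all 18 libraries, with 720 CPM in Sample_1160, the direction of *Grik5* turned to 0.044 per allele (edgeR adjusted p = 0.821).

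*Grik2* had 70.4, 76.8 and 91.9 CPM in control hippocampi, 71.6, 75.6 and 79.5 in cKO+/-, and 83.9, 87.2 and 99.6 in cKO-/-. These 5 retained cKO-/- libraries lay above every cKO+/- library but not above every control, while Sample_1160, at 65.3 CPM, lay below all of both. The share of all genes with such a separation of the mutant genotypes was not counted. The change was 0.093 per allele (SE 0.036, edgeR quasi-likelihood Benjamini-Hochberg adjusted p = 0.155). Across the 17 hippocampi, the genes closest to *Grik2* in log2 CPM were *Sec24d* (Pearson's r = 0.907), *Adamts3* (0.878) and *Zfp715* (0.871) of 14338 genes, given as a description.

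*Gria2*, *Gria3*, *Gria4*, *Grik1* and *Grik4* had changes per allele between -0.014 and 0.065 in hippocampus, none of them past the test. For *Gria3*, which had been called in cerebellum, the hippocampal value was 0.015 (95% confidence interval -0.033 to 0.064), with 250 to 301 CPM in controls and 270 to 286 in the 5 cKO-/- libraries.

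The heterozygous and homozygous animals were then compared directly. Between cKO+/- and controls 0 of the 9 genes were called in either tissue, beside 0.342% of genes in cerebellum and 0.0349% in hippocampus (edgeR quasi-likelihood test), and 0 had an unadjusted p under 0.05 in either. Between cKO-/- and controls, 1 was called in cerebellum (12.7% of genes), again *Gria3*, with 0.39 on the log2 scale (SE 0.12, edgeR adjusted p = 0.0364), and 0 in hippocampus (4.87% of genes), where 4 had an unadjusted p under 0.05 and DESeq2 called 2, *Grik2* and *Grik3*. In that hippocampal contrast *Grik2* differed by 0.20 and *Grik3* by -0.27 (edgeR adjusted p = 0.0809 and 0.0888). The unadjusted exact two-sided permutation p-values were 0.0260 for each. Over all 18 hippocampi these permutation p-values were 0.240 for *Grik2* and 0.0130 for *Grik3*.

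Between cKO-/- and cKO+/-, which both carry Cre, *Grik3* was the 1 gene called in hippocampus, beside 0.718% of genes. It had 58.8, 69.8 and 79.2 CPM in cKO+/- hippocampi and 40.5, 55.0 and 58.4 in cKO-/-, with controls between at 53.5, 61.7 and 74.5. All 5 retained cKO-/- libraries lay below all 6 cKO+/- libraries, although the nearest values, 58.4 and 58.8 CPM, were almost equal. The share of all genes separate in this contrast was not counted. The difference was -0.42 (SE 0.089, 95% confidence interval -0.60 to -0.23, edgeR quasi-likelihood Benjamini-Hochberg adjusted p = 0.0372).

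The *Grik3* call was lost when any 1 of 10 of the 17 animals was left out, with differences of -0.49 to -0.34 and the largest adjusted p, 0.120 by the edgeR test, without cKO-/- animal Sample_1385. Over all 18 hippocampi, with *Grik3* at 20.2 CPM in animal Sample_1160, the difference was -0.57 and the edgeR adjusted p 0.251. In the same contrast *Grik2* differed by 0.24 (edgeR adjusted p = 0.0873). In cerebellum 0 of the 9 genes were called between the mutant genotypes (0.413% of genes), with differences of 0.27 for *Gria3* and 0.31 for *Grik3* at unadjusted p under 0.05.

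**Figure D4:**
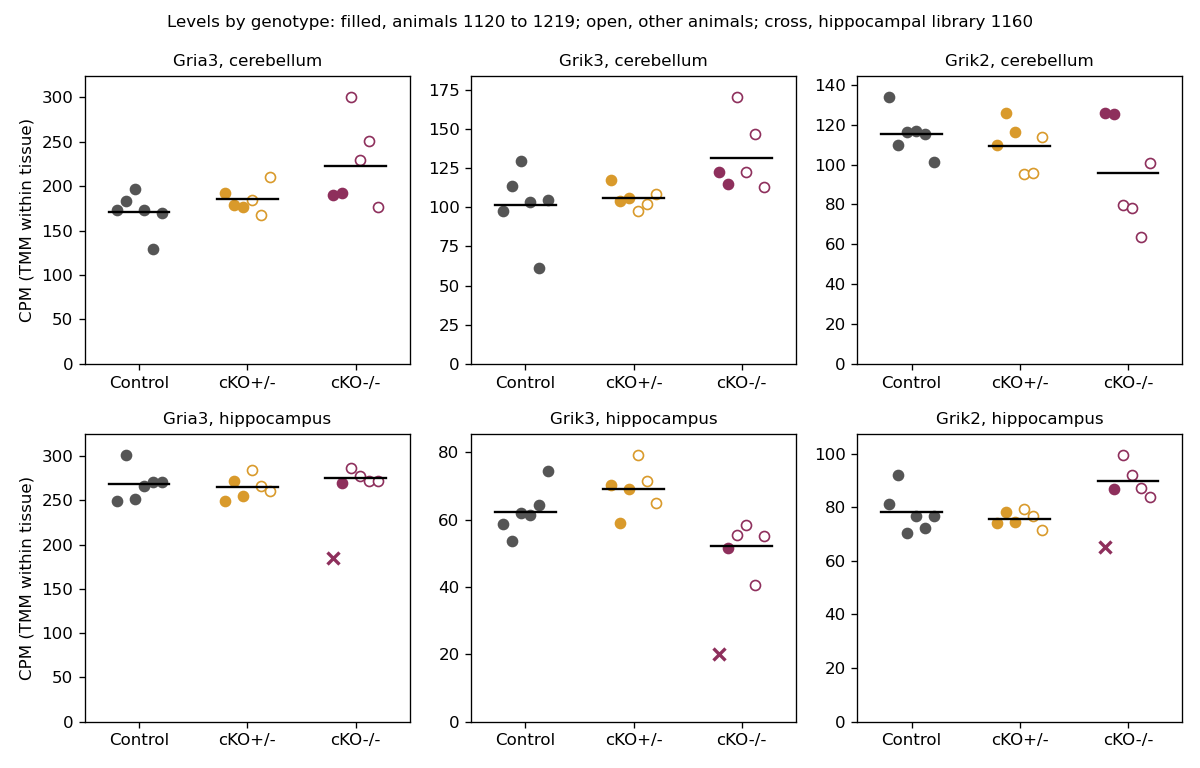
CPM of *Gria3*, *Grik3* and *Grik2* in each library of the 3 genotypes, by tissue, with filled points inside the number range, open points outside it, a cross for the hippocampus of Sample_1160 and a line at each mean without it. In cerebellum *Gria3* rises from a median of 173 CPM in controls to 211 in cKO-/-, and in hippocampus *Grik3* stands at 58.8 to 79.2 in cKO+/- and 40.5 to 58.4 in cKO-/- without animal Sample_1160.

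Whether the change per allele differed between tissues was tested with an interaction term over 35 libraries. None of the 9 genes passed (0 called, beside 1.63% of 14870 genes by the edgeR quasi-likelihood test), 4 had an unadjusted p under 0.05, and DESeq2 called 1, *Grik3*. The 4 were *Grik3* with a hippocampal change lower by 0.32 (interaction -0.32, SE 0.097, adjusted p = 0.0802), *Gria3* with -0.19 (0.153), *Grik2* with 0.22 (0.191) and *Gria1* with -0.17 (0.308), all adjusted p-values from edgeR. A difference between the tissues in the change of *Gria3* is thus not shown.

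The makeup of the AMPA family was also followed over genotypes. The share of *Gria3* in the summed AMPA RPKM was 8.95 to 10.9% in control cerebella (mean 9.93), 9.72 to 11.8% in cKO+/- (mean 10.8) and 10.9 to 12.7% in cKO-/- (mean 11.9). In hippocampus it was 11.8 to 12.3%, 11.9 to 13.5% and 12.6 to 13.04%, the last including animal Sample_1160. The ranges of controls and cKO-/- did not meet in either tissue, although in cerebellum the highest control (10.89%) and the lowest cKO-/- (10.92%) were almost equal. Among the shares of the 9 genes in their families this was so for 1 of 9 in each tissue, *Gria3* in both, and it was picked out after the values were seen and was not tested. How often shares in other gene families separate in this way was not counted. A share also moves with the other subunits. In hippocampus without Sample_1160, the level of *Gria3* itself changed by only 0.015 per allele. Mean shares in control and cKO-/- hippocampi were 53.9 and 50.5% for *Gria1*, 31.4 and 33.8% for *Gria2*, and 2.68 and 2.91% for *Gria4*.

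Within the number range, the *Gria3* share was 10.9 to 11.3% in the 2 cKO-/- cerebella. In hippocampus it was 12.7% in Sample_1219 and 12.8% in the set-apart Sample_1160. All controls lie in that range, so leaving out the other cKO-/- animals could not make these ranges meet. This is therefore no check of the separation. The hippocampal shares of *Grik3*, which met over all libraries, did not meet within the range. They were 4.59 to 6.22% in controls, 0.970% in Sample_1160 and 4.49% in Sample_1219. With shares taken from counts without dividing by gene length, the cerebellar ranges met (7.55 to 9.32% in controls and 9.18 to 10.8% in cKO-/-) and the hippocampal ones did not (9.74 to 10.1% and 10.3 to 10.7%). The cKO+/- cerebella also split by animal number, with 9.72 to 10.9% inside the range and 11.1 to 11.8% outside it.

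**Figure D5:**
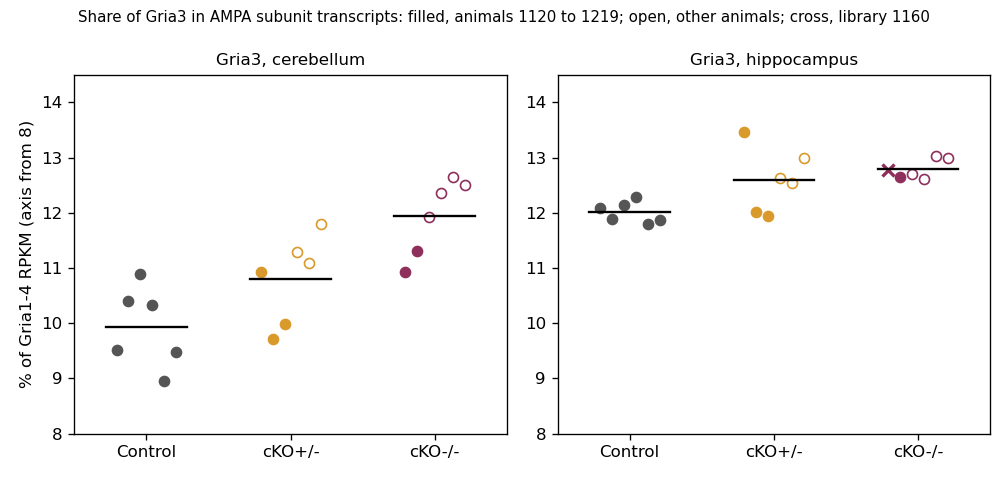
Share of *Gria3* in the summed RPKM of the 4 AMPA subunits (percent) in each library, by tissue and genotype, with filled points for animal numbers inside the range from Sample_1120 to Sample_1219, open points for the others, a cross for the hippocampus of Sample_1160 and a line at each mean without it. The axis starts at 8%. In hippocampus the 6 cKO-/- libraries lie at 12.6 to 13.04% and the 6 controls at 11.8 to 12.3%.

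Males and females, with genotype in the model, differed in 0 of the 9 genes in cerebellum (0.0499% of genes) and in 0 in hippocampus (0.907% of genes) by the edgeR quasi-likelihood test, with 0 and 1 genes at an unadjusted p under 0.05. The latter was *Gria1*, 0.11 higher in males on the log2 scale (edgeR adjusted p = 0.298).

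The proteins that bind, sort and modify these receptors were taken from 7 lists with 66 genes. In control animals 60 of the 65 tested genes differed between tissues (92.3%), 44 higher and 16 lower in hippocampus, where the shares over all genes were 71.9%, 35.2% and 36.7%. The kinases and phosphatases of the subunits were higher in hippocampus in 9 of 9, the vesicular glutamate transporters in 3 of 3, the extracellular organizers in 9 of 12 with 2 lower, and the AMPA auxiliary subunits in 9 of 17 with 6 lower.

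Auxiliary subunits differed between tissues in both directions, and 5 of them, picked from the lists, are given here. A match with the pore subunits was not tested. *Cnih2*, a cornichon that slows AMPA receptor gating, had 36.3 to 44.5 CPM in control cerebella and 434 to 595 in hippocampi, 13.03-fold higher, and *Cacng8*, the regulatory protein known best from hippocampus, had 7.21 to 10.3 and 129 to 184, 20.5-fold higher. *Cacng2*, or stargazin, which cerebellar granule cells need to bring AMPA receptors to the surface, had 91.2 to 131 and 29.9 to 39.5, 3.30-fold lower. Of the kainate auxiliary subunits, *Neto1* was 65.9-fold higher in hippocampus (0.991 to 1.999 against 69.5 to 119 CPM) and *Neto2* was 2.44-fold lower (156 to 171 against 52.0 to 71.3 CPM). All 5 passed the edgeR test. *Adarb1*, the enzyme that edits the Q/R site of *Gria2*, had 331 to 521 CPM in control cerebella and 223 to 267 in hippocampi, 1.64-fold lower (edgeR quasi-likelihood Benjamini-Hochberg adjusted p = 2.117e-05), and its change with *Pogz* missed the threshold of edgeR in both tissues (hippocampus -0.076 per allele, edgeR adjusted p = 0.0887), while DESeq2 called it in hippocampus.

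With *Pogz* dosage, 8 of 63 tested partner genes were called in cerebellum, 5 higher and 3 lower (12.7%, close to the 13.7% of all genes). The firmest was *Gsg1l*, an auxiliary subunit that dampens AMPA receptor currents. It had 19.9, 27.3 and 30.4 CPM in control cerebella, 14.3, 19.1 and 21.1 in cKO+/-, and 10.2, 12.6 and 14.9 in cKO-/-, so that controls and cKO-/- did not overlap, as for 4.58% of genes. It fell by 0.52 per allele on the log2 scale (SE 0.062, edgeR quasi-likelihood Benjamini-Hochberg adjusted p = 2.31e-05), and it was the 1 partner gene called within the number range.

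*Cpt1c*, whose product binds AMPA receptors in the endoplasmic reticulum, fell by 0.21 per allele and *Camk2b*, a calcium-dependent kinase, fell by 0.14. *Lrrtm4* and *Lrrtm1*, postsynaptic adhesion proteins, rose by 0.44 and 0.35, *Neto1* by 0.48, the kinase anchor *Akap5* by 0.23 and the auxiliary subunit *Cacng4* by 0.19, the last just inside the threshold (edgeR quasi-likelihood Benjamini-Hochberg adjusted p = 0.0499). *Lrrtm1*, *Lrrtm4*, *Neto1* and *Akap5* were low in cerebellum, at 0.991 to 7.62 CPM in controls. The vesicular transporter *Slc17a6* was uneven, at 0.226 to 9.51 CPM in controls and 0.624 to 121 in cKO-/- cerebella, and it missed the threshold (edgeR adjusted p = 0.0511).

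Apart from *Gsg1l*, these cerebellar calls were lost with the number-range covariate and within the range. The changes per allele were then -0.060 and -0.038 for *Camk2b*, 0.26 and 0.22 for *Lrrtm4*, 0.18 and 0.19 for *Lrrtm1*, 0.16 and 0.15 for *Akap5*, -0.15 in both settings for *Cpt1c*, 0.34 and 0.42 for *Neto1*, and 0.20 and 0.13 for *Cacng4*. *Gsg1l* was called with -0.49 and -0.48. The call of *Cacng4* was also lost with RLE scaling and without the filter on low counts (edgeR adjusted p = 0.0522 and 0.0696).

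In hippocampus 4 of 65 partner genes were called, 0 higher and 4 lower (6.15%, against 4.44% of all genes). *Cacng5*, a regulatory protein of AMPA receptors, had 14.9, 18.1 and 21.5 CPM in controls, 6.88, 10.7 and 13.8 in cKO+/-, and 9.31, 10.1 and 12.8 in cKO-/-. Both mutant groups lay below all controls and overlapped each other. It fell by 0.41 per allele (SE 0.086, edgeR quasi-likelihood Benjamini-Hochberg adjusted p = 0.0113).

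*Shisa7* fell by 0.20 per allele in hippocampus, from 306 to 364 CPM in controls to 207 to 311 in cKO-/-, and the AMPA auxiliary gene *Shisa8*, at 1.27 to 4.28 CPM in controls and 0.484 to 1.52 in cKO-/-, fell by 0.58. *C1ql2*, a mossy fiber organizer that recruits kainate receptors, fell by 0.45 per allele, from 84.4 to 137 CPM in controls to 41.8 to 71.8 in cKO-/- (edgeR quasi-likelihood Benjamini-Hochberg adjusted p = 0.00729), and these did not overlap, as for 3.65% of genes, while Sample_1160 held 109 CPM. The summed level of 4 dentate granule cell markers, *C1ql2* among them, was 309 to 543 CPM in control and 161 to 273 in cKO-/- hippocampi, and the part of cell composition was not tested. With animal Sample_1160 included, 2 of the 4 calls remained, *Cacng5* and *Shisa7*.

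All 4 hippocampal calls were lost with a covariate for the number range and within the range. *Shisa7* then changed by -0.12 and -0.057 per allele (edgeR adjusted p = 0.784 and 0.865), *Cacng5* by -0.42 and -0.59, *C1ql2* by -0.53 and -0.52, and *Shisa8* by -0.57 and -0.47. *Shisa8* was also lost in the bias-adjusted form of the edgeR fit (adjusted p = 0.0627) and without any 1 of 12 of the 17 animals, and *Shisa7* without any 1 of 5, Sample_1155, Sample_1190, Sample_1371, Sample_1379 or Sample_1385. *Cacng5* and *C1ql2* were called without each of the 17.

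The change per allele differed between tissues for 4 of the 65 partner genes, *Gsg1l* (hippocampus minus cerebellum 0.45), *Cacng5* (-0.41), *Lrrtm4* (-0.56) and *C1ql2* (-0.93), where 6.15% compares with 1.63% of all genes. Their edgeR adjusted p-values lay between 0.0102 and 0.0348, and *C1ql2* was below 1 CPM in control cerebella. Over all 36 libraries 3 of the 4 were called, all but *Gsg1l*, and with the number-range covariate or within the range 0 were called.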

How the data were processed

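The authors aligned 43-base paired-end reads to the mouse genome and counted them per gene with STAR (version 250a and build mm9 in the submitters' processing notes). The coordinates in the tables match GRCm38, and the annotation, the use of strand and the treatment of multiply mapped reads are not given in the sources used here. The deposited values are raw counts per gene for 18 cerebella and 18 hippocampi, all mapped to samples by their labels.

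From these counts, CPM were scaled by the trimmed mean of M-values (TMM) within each tissue, and RPKM by TMM over the 36 libraries and the gene length in the tables. The test for genes over 1 CPM in 6 or more libraries was the edgeR (4.0.16, R 4.3.3, limma 3.58.1) quasi-likelihood F-test and Benjamini-Hochberg adjustment at 0.05 over all genes, with terms for lost *Pogz* alleles, or genotype, and sex. The tissue test used the 12 control libraries and the interaction 35 libraries. Filter and scaling used all 18 hippocampi, and the fit left out animal Sample_1160. Exact permutation tests were two-sided on log2(CPM + 1). Scripts were tested on simulated counts. DESeq2 (1.42.0), other scalings, no filter, no sex term, a number-range covariate, the range alone and each animal left out were tried as alternatives, those for partner genes, sex and the contrasts with controls chosen after seeing the data.

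Both tissues came from the same animals, which pairs them by number. Same-animal deviations from the group means correlated with a median r of 0.166 (-0.214 to 0.289, above 0.1 in 12 of 17 animals). P-values of the tests within a tissue measure the spread between animals. The main tissue and interaction tests had no term for the animal and treated both libraries of an animal as independent. The genes, the lists and the rule for the genes named (the 9 subunits, partner genes called by edgeR in a dosage or interaction test, and the closest genes by correlation) were chosen with earlier results of these data known. The partner genes *Cnih2*, *Cacng8*, *Cacng2*, *Neto2*, *Adarb1* and *Slc17a6* fell outside this rule and were picked from the lists.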

Additional observations from a re-analysis of the deposited data

Results flagged for a closer look

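Of 54 groups of libraries (9 genes, 3 genotypes, 2 tissues), 6 had a highest or lowest library far from its nearest neighbor by Dixon's criterion, where chance gives about 1 in 20. Of these, 3 were the hippocampus of animal Sample_1160, at 974 CPM of *Gria1* (other cKO-/- 1173 to 1259), 185 CPM of *Gria3* (others 270 to 286) and 720 CPM of *Grik5* (others 245 to 357). The hippocampus of cKO+/- animal Sample_1433 was high in *Gria2*, at 1205 CPM (others 897 to 990), and low in *Grik5*, at 267 CPM (others 325 to 353). The cerebellum of control Sample_1129 was high in *Gria2*, at 633 CPM (others 363 to 446). Without animal Sample_1129 the tissue difference of *Gria2* was 1.45 on the log2 scale in place of 1.31.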

How the results depend on the processing

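All 9 tissue calls held under every alternative run, including the fit with the animal as a replicate block (9 genes, 10377 genes in all), and the block left the interaction at 0 of the 9 genes. For dosage within a tissue, no paired analysis was possible because each animal gave 1 library. By dosage in cerebellum, the count of 1 subunit gene became 2 by DESeq2 (with *Grik3*), 0 with the number-range covariate and 0 within the range, and *Gria3* itself 0.13 (adjusted p = 0.359) and 0.081 by edgeR. DESeq2 called 1 gene (*Grik3*) in the interaction and 2 in the hippocampal contrasts of cKO-/- with cKO+/- and with controls (*Grik2* and *Grik3*) and in the cerebellar one with controls (*Gria3* and *Grik3*), and over 18 hippocampi the contrast with cKO+/- gave 0. Partner genes gave 1 with the covariate and 1 within the range in cerebellum, 2 over 18 libraries, 0 and 0 in hippocampus, and 8 by DESeq2, 0 and 0 in the interaction. Over all genes, cerebellar dosage gave 1916 calls, 2569 by DESeq2, 308 with the covariate and 277 within the range, hippocampal dosage 636, 246 over 18 libraries, 68 and 27, and the interaction 243, 461 by DESeq2, 18 and 17. Signs turned for uncalled genes in cerebellum within the range (*Gria1* -0.024, *Grik2* 0.052, *Grik4* -0.049) and with the covariate (*Grik4* -0.018, *Grik5* 0.00066), in hippocampus over 18 libraries (*Gria2* -0.036, *Gria3* -0.022, *Gria4* -0.024, *Grik4* 0.026, *Grik5* 0.044), with the covariate (*Gria2* -0.0072, *Gria3* -0.0020, *Grik4* 0.016) and within the range (*Gria2* -0.051, *Gria3* -0.022, *Grik4* 0.052), and in the interaction within the range (*Grik2* -0.042). Leaving out each animal gave 0 to 2 genes by cerebellar dosage (2 with *Grik3* without Sample_1155 or Sample_1170), 0 to 1 in hippocampus (*Grik2* without Sample_1155), 0 to 1 in the interaction (*Grik3* without Sample_1155 or Sample_1170), 0 to 3 for cKO-/- against cKO+/- in hippocampus (3 without Sample_936, 2 without Sample_1155, 0 without Sample_933, Sample_938, Sample_1120, Sample_1170, Sample_1189, Sample_1190, Sample_1219, Sample_1371, Sample_1385 or Sample_1433), and 0 to 2 against controls in either tissue (in cerebellum 2 without Sample_1170 and 0 without Sample_1129, Sample_1172, Sample_1190, Sample_1371, Sample_1379 or Sample_1385, in hippocampus 2 without Sample_936 or Sample_1155 and 1 without Sample_1379). For partner genes they gave 3 to 13 in cerebellum (13 without Sample_1160, 3 to 5 without Sample_1129, Sample_1190, Sample_1371 or Sample_1385), 2 to 6 in hippocampus (2 without Sample_1190, Sample_1371, Sample_1379 or Sample_1385) and 2 to 7 in the interaction (7 without Sample_1160 or Sample_1433, 2 without Sample_1190). Over these omissions the uncalled changes of *Gria2* (-0.011 to 0.12) and *Gria4* (-0.043 to 0.033) in cerebellum and of *Gria2* (-0.0069 to 0.051) and *Grik4* (-0.051 to 0.022) in hippocampus crossed 0. Except where given, the cause of these differences was not tested. The 9 subunit genes had between 297 and 58898 reads per library, and an effect of depth was not tested.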
